A study of Mus musculus with 10 samples.

Results

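The 46 genes described here encode proteins of the lysosome or regulators of it. They comprise genes of 9 cysteine, 2 aspartic and 2 serine proteases, 10 glycosidases, 3 sulfatases and 8 proteins of lipid hydrolysis and transport. They also comprise genes of 2 phosphatases, 8 membrane proteins and 2 regulators, among them Tfeb, whose product switches on lysosomal genes. They were chosen by symbol from a list, and each was read from the probe set with the highest mean level over all arrays. All 46 were measured, among 19938 genes in all. The cells were conventional dendritic cells of the cDC2 type from mouse spleen, which take up antigen and present it to helper T cells. Their RNA was hybridised to 10 one-colour arrays.

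The 4 groups crossed genotype with immunisation. Notch2-11cKO mice carried CD11c-Cre and floxed Notch2 alleles (CD11c-Cre+ Notch2f/f), so that Cre acts in cells that use the CD11c promoter, dendritic cells among them but not these alone. Notch2-11cKO cells were measured on 3 arrays taken 24 hours after 200000000 sheep red blood cells (SRBC) were injected into the peritoneum, and on 2 arrays from untreated mice. WT cells were likewise measured on 3 arrays after SRBC and on 2 arrays from untreated mice. Collagenase B and DNase were used to dissociate every spleen, and cDC2 were sorted from the CD11c+ fraction. The labels give no ages. They also do not state that the replicates of a group were different mice, so p-values measure only the spread between these arrays, which may be technical.

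Lysosomes are acidic compartments in which hydrolases break down protein, sugar chains and lipids brought in by endocytosis, phagocytosis and autophagy. In dendritic cells the same proteases cut antigen into peptides and trim the invariant chain of MHC class II molecules. Many lysosomal genes are switched on together by TFEB and its relatives MITF, TFE3 and TFEC, which bind an E-box within a palindrome known as the CLEAR element.

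That E-box, CACGTG, was searched on both strands in RefSeq promoter windows of build GRCm38.p6 that run from 250 bases before to 50 bases after a gene's start; being a palindrome, it reads alike on each strand. Windows were found for 40 of the 46 genes, and 13 of these (32.5%) held the E-box, against 8.09% of 27025 genes. Stretches of 3 promoters are shown because their genes differed between the genotypes in opposite directions, Ctsd and Lamp1 being higher and Gla lower in Notch2-11cKO cells, while each holds more than 1 E-box. Capitals mark CACGTG. The stretch of Ctsd lies at chr7:142387880-142388077 on the minus strand, that of Lamp1 at chr8:13159060-13159160 on the plus strand and that of Gla at chrX:134601154-134601255 on the minus strand.
Ctsd: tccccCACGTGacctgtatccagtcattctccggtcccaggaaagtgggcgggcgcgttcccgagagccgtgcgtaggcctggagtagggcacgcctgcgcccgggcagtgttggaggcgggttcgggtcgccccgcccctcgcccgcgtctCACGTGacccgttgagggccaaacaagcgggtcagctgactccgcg
Lamp1: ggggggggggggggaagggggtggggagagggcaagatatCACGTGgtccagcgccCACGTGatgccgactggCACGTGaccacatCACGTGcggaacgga
Gla: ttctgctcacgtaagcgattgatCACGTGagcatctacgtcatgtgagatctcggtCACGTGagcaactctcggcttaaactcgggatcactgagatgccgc
The Lamp1 stretch held 4 E-boxes, and those of Ctsd and Gla held 2 each. An E-box was in 3 of the 16 genes with a window that were higher in Notch2-11cKO cells in at least 1 comparison (18.8%: Ctsa, Ctsd and Lamp1), and in 10 of the 24 other genes with one (41.7%). A match of letters describes the window only.

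Before the results, the arrays themselves were checked. Pearson's r between arrays of a group, across genes, lay between 0.971 and 0.991. WT SRBC replicate 1 stood apart from the other WT SRBC arrays (r = 0.971 with each, against 0.99 between them), and Notch2-11cKO SRBC replicate 3 from its own group (r = 0.978 and 0.975, against 0.988). For the 46 genes, counts of calls without both arrays are given after the genotype comparisons and after the SRBC responses. The log2 intensity of Notch2 was 7.96, 7.64 and 7.23 in Notch2-11cKO cells after SRBC, against 7.58, 7.09 and 7.09 in WT cells after SRBC. Without treatment it was 8.37 and 8.17 in Notch2-11cKO cells, against 8.11 and 8.14 in WT cells. The sources used here do not say whether its probe set covers the deleted part, so these values do not check the genotype.

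The cDC2 label was set against 10 defining genes. Itgax, Sirpa, Flt3 and H2-Ab1 all lay above the 96th percentile of genes by mean level. Cd209a, Irf4, Cd4, Zbtb46, Clec4a4 and Esam lay lower, at percentiles 93.3, 90.9, 83, 78.2, 60 and 44.8. Irf4 was not called, with mean log2 intensities after SRBC of 7.38 in Notch2-11cKO and 8.40 in WT cells. Untreated, its means were 7.21 and 8.70. Clec4a4, a lectin receptor of Notch2-dependent cDC2, had log2 intensities of 4.48, 3.23 and 3.89 in Notch2-11cKO cells after SRBC and 3.94 and 3.73 in untreated Notch2-11cKO cells, against 6.33, 7.06 and 6.93 in WT cells after SRBC and 7.71 and 8.13 in untreated WT cells. Esam, an adhesion molecule of the same subset, was lower in both genotype comparisons, by log2 differences of -1.15 after SRBC and -1.84 untreated. Cd209a, a lectin of other cDC2 and of monocyte-derived cells, was higher in both (2.07 and 1.73). Of the 10 genes 1 was higher and 2 were lower after SRBC, and 1 was higher and 3 were lower untreated, the third being Cd4.

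Markers of other cells also moved with genotype. Of 8 monocyte markers 6 were higher in Notch2-11cKO cells in both comparisons, Fn1, Ccr2 and Lyz2 among them, and 1, Treml4, was lower untreated. The summed intensity of the monocyte markers was 8842 to 9649 in Notch2-11cKO arrays after SRBC and 10630 to 12300 in untreated Notch2-11cKO arrays, against 1383 to 1772 in WT arrays after SRBC and 1478 to 1699 in untreated WT arrays. Bright genes weigh most in such a sum. Lyz2 was the brightest, with means after SRBC of 12.60 in Notch2-11cKO and 10.01 in WT cells. Chil3 had 4.42 and 4.38 there. The mean log2 intensity of the monocyte markers after SRBC was 8.30 to 8.58 in Notch2-11cKO arrays, against 6.03 to 6.31 in WT arrays. Untreated it was 8.55 to 8.86, against 6.17 to 6.25. Of 14 macrophage markers 7 were higher in each comparison, C1qa, C1qb and C1qc among them in both. None was called lower, but differences were below 0 for 3 after SRBC (Adgre1, Timd4 and Spic) and for 2 untreated (Adgre1 and Marco). The macrophage sum was 2765 to 3271 in Notch2-11cKO arrays after SRBC and 2141 to 2827 in untreated Notch2-11cKO arrays, against 1587 to 2197 in WT arrays after SRBC and 875.2 to 940.1 in untreated WT arrays. Of 8 cDC1 markers 3 were higher after SRBC and 4 untreated, with sums of 1032 to 1291 in Notch2-11cKO arrays after SRBC and 1413 to 1455 in untreated Notch2-11cKO arrays, against 631.9 to 743.8 in WT arrays after SRBC and 493.4 to 623.2 in untreated WT arrays. No cDC1 marker was called lower, but differences were below 0 for 2 after SRBC (Xcr1, at -0.75, and Itgae) and for 1 untreated (Itgae). Of 6 plasmacytoid dendritic cell markers 3 were higher after SRBC and 2 untreated. Of 6 B cell markers 2 were lower in each comparison, of 6 NK cell markers 1 was lower in each, of 6 T cell markers 1 was lower in each and 1 higher untreated, of 7 neutrophil markers 1 was higher after SRBC, and of 4 erythroid markers none was called. Absence of a marker could not be read, since no deposited value was at or below 0 and no detection p-value was used. Some markers were dim, such as Ly6g and Cd79a with mean log2 intensities of 2.91 and 2.97. The part of these cells in the lysosomal differences below was not tested, and in bulk samples fewer cells of a type and less RNA per cell cannot be told apart.

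The first comparison asked how Notch2-11cKO and WT cells differed after SRBC. Of the 46 lysosomal genes 18 were higher in Notch2-11cKO cells and 1 was lower, and 27 did not pass the test. Among all genes tested 3.36% were higher and 1.96% lower. In either direction 41.3% of the lysosomal genes were called, against 5.32% of all genes. All but 2 of the 46 genes lay above the median gene level. A fit on the 9969 genes above that level called 1130 of them. The arrays of the genotypes did not overlap for 27 of the 46 genes, against 20.3% of all genes. The median difference over the 46 was 0.54 on the log2 scale, against -0.02 over all genes, and single genes ranged from -0.92 to 2.76. Ctsd, Lipa, Psap and Hexa had the highest differences. Differences are log2 intensities of Notch2-11cKO minus WT with the standard error of a limma fit over all 10 arrays, and each p is adjusted over all genes (Benjamini-Hochberg), with calls under 0.05.

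Without treatment the same direction held with fewer calls. Of the 46 genes 11 were higher in untreated Notch2-11cKO cells than in untreated WT cells and 1 was lower, against 2.95% and 2.16% of all genes. In either direction 26.1% were called, against 5.11% of all genes, and the arrays did not overlap for 36 of the 46, against 48.8% of all genes. The fit on the 9969 genes above the median level called 1013 of them. The median difference was 0.4, against -0.024 over all genes. All 11 genes that were higher untreated were also among the 18 that were higher after SRBC: Acp2, Arsb, Ctsb, Ctsd, Grn, Hexa, Lamp1, Lamp2, Npc2, Psap and Scarb2. The other 7 of the 18 were Asah1, Cd68, Ctsa, Ctsc, Fuca1, Gusb and Lipa, whose untreated differences were all above 0 but did not pass.

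The genotype comparisons share no arrays. Across the 46 genes they had the same sign for 39 (84.8%), against 63.3% of all genes and 69.5% of those above the median level. Pearson's r was 0.86 across the 46 genes, 0.72 across all genes and 0.76 across those above the median level. These are descriptions over genes that are not independent. Every Notch2-11cKO array lay above every WT array for 20 of the 46 genes, whatever the treatment, against 4.43% of all genes. The opposite held for 1 gene, Lgmn, against 3.04% of all genes.

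**Figure D1:**
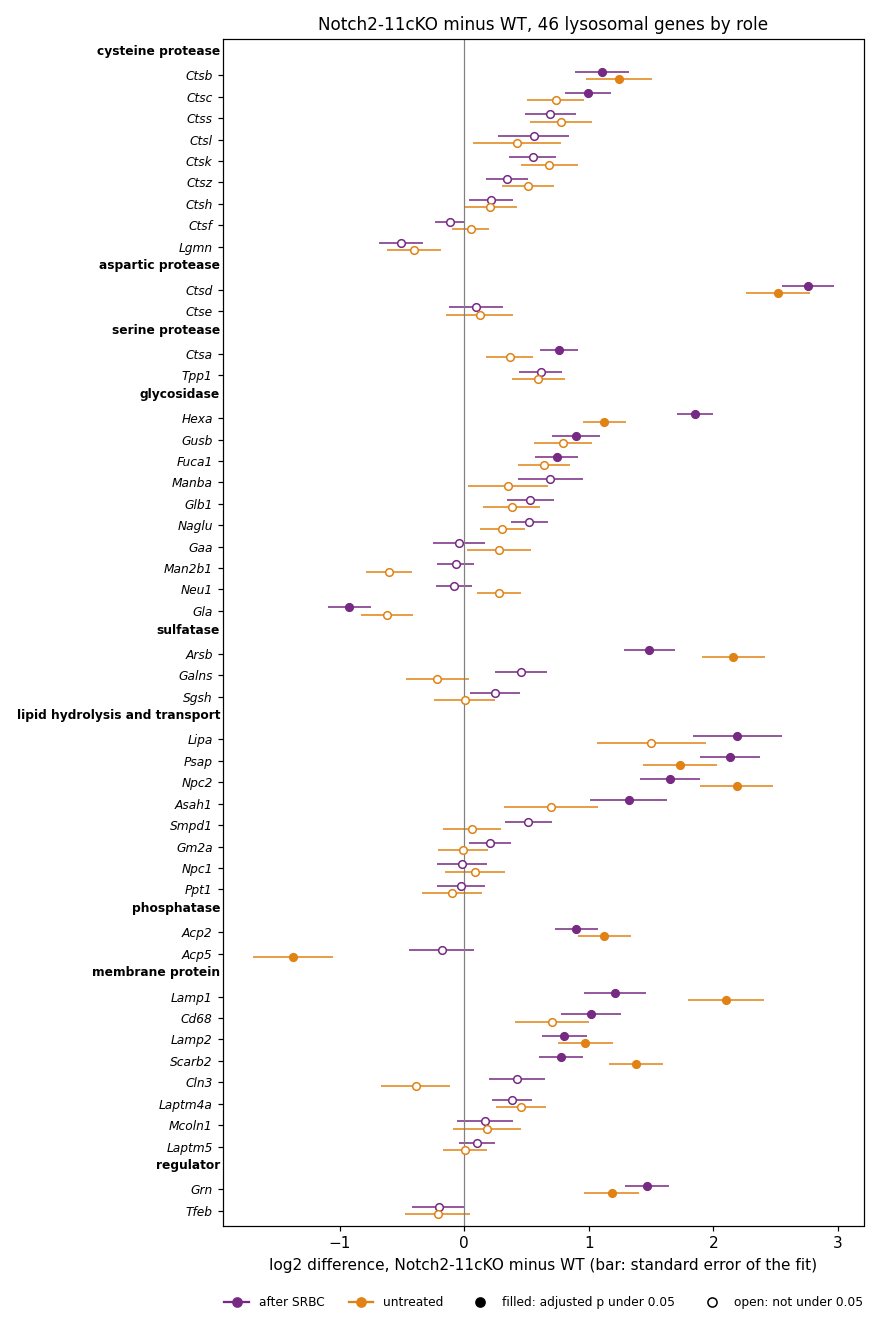
Differences in log2 intensity, Notch2-11cKO minus WT, for the 46 lysosomal genes grouped by role, after SRBC (purple, n = 3 against 3) and untreated (orange, n = 2 against 2). Bars are standard errors of the fit and filled points passed an adjusted p of 0.05; 18 filled purple points lie to the right of 0 and 1, Gla, to the left.

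Among the proteases the aspartic protease Ctsd, cathepsin D, had the largest difference. Its log2 intensity was 10.48, 10.01 and 10.73 in Notch2-11cKO cells after SRBC, against 7.49, 7.74 and 7.70 in WT cells after SRBC. Untreated Notch2-11cKO cells had 10.67 and 10.64, against 7.88 and 8.39 in untreated WT cells. No Notch2-11cKO array came near a WT array. The difference was 2.76 ± 0.21 after SRBC, or 6.79-fold (adjusted p = 2.42e-05), and 2.52 ± 0.26 untreated, or 5.74-fold (adjusted p = 0.000165). Ctse, cathepsin E, the other aspartic protease, had 5.08, 5.50 and 4.92 in Notch2-11cKO cells after SRBC, against 4.71, 5.39 and 5.12 in WT cells after SRBC. Untreated, Ctse had 4.85 and 5.51 in Notch2-11cKO cells, against 5.09 and 5.02 in WT cells. Its groups overlapped in both genotype comparisons, with differences of 0.09 ± 0.22 after SRBC (adjusted p = 0.89) and 0.12 ± 0.27 untreated (adjusted p = 0.932).

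Of the 9 cysteine proteases 2 were higher after SRBC and 1 of them, Ctsb, also untreated. Ctsb encodes cathepsin B, an endopeptidase that also trims dipeptides from carboxyl ends. After SRBC, log2 intensities were 9.10, 8.82 and 9.46 in Notch2-11cKO cells, against 7.63, 8.26 and 8.18 in WT cells. Without treatment, 9.47 and 9.29 were measured in Notch2-11cKO cells, against 8.20 and 8.07 in WT cells. The groups did not overlap in either comparison, and the differences were 1.10 ± 0.22 after SRBC (adjusted p = 0.0122) and 1.24 ± 0.26 untreated (adjusted p = 0.0186). Ctsc encodes cathepsin C, which activates serine proteases of granules. Its log2 intensity was 10.30, 10.33 and 9.69 in Notch2-11cKO cells after SRBC, against 9.27, 9.0 and 9.08 in WT cells after SRBC, a difference of 0.99 ± 0.19 (adjusted p = 0.0098). Its untreated difference was 0.73 ± 0.23 (adjusted p = 0.111).

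The protease best known for cutting the invariant chain in dendritic cells, Ctss (cathepsin S), did not pass. After SRBC, log2 intensities were 11.14, 10.48 and 11.41 in Notch2-11cKO cells, against 10.23, 10.39 and 10.34 in WT cells. In untreated mice the values were 11.12 and 11.20 in Notch2-11cKO cells, against 10.28 and 10.49 in WT cells. The groups did not overlap, though Notch2-11cKO SRBC replicate 2 lay close to the WT arrays, and the differences were 0.69 ± 0.20 after SRBC (adjusted p = 0.0826) and 0.78 ± 0.25 untreated (adjusted p = 0.126). Ctsl, cathepsin L, which does the same task in the thymic epithelium, had 6.80, 6.46 and 7.33 in Notch2-11cKO cells after SRBC, against 5.72, 6.55 and 6.65 in WT cells after SRBC. Those groups overlapped, and the difference was 0.56 ± 0.29 (adjusted p = 0.354). Untreated, Ctsl had 6.85 and 7.33 in Notch2-11cKO cells, against 6.50 and 6.83 in WT cells (0.42 ± 0.35, adjusted p = 0.709).

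Lgmn, legumain, which cuts after asparagine, was the one cysteine protease with every Notch2-11cKO array below every WT array. Its differences of -0.51 ± 0.18 after SRBC (adjusted p = 0.144) and -0.41 ± 0.22 untreated (adjusted p = 0.461) did not pass. The other 4 cysteine proteases, Ctsf, Ctsh, Ctsk and Ctsz, had differences between -0.12 and 0.55 after SRBC and between 0.05 and 0.68 untreated, and none passed. Of the serine proteases Ctsa, which also protects other lysosomal enzymes from breakdown, was higher after SRBC by 0.76 ± 0.15 (adjusted p = 0.0136). Its untreated difference was 0.36 ± 0.19 (adjusted p = 0.427). Tpp1, which removes tripeptides from amino ends, had differences of 0.61 ± 0.17 after SRBC (adjusted p = 0.0709) and 0.59 ± 0.21 untreated (adjusted p = 0.183).

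**Figure D2:**
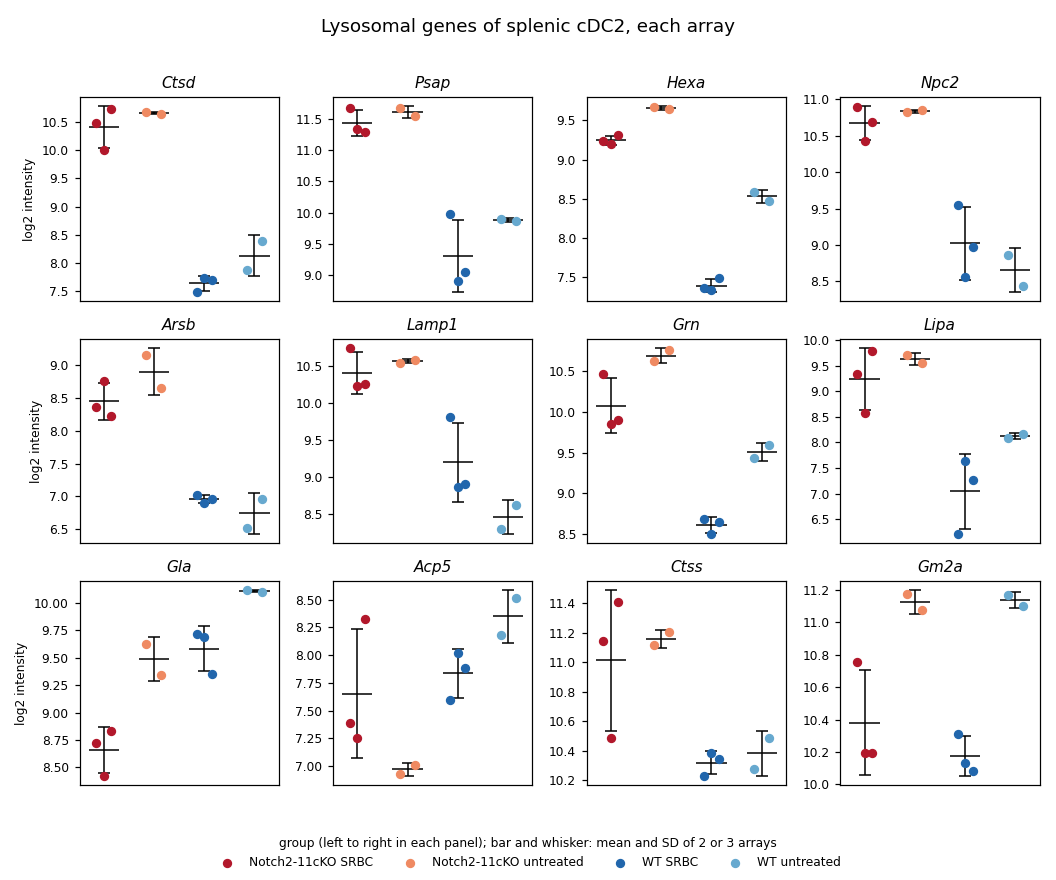
Log2 intensity of 12 lysosomal genes on each array, with groups from left to right Notch2-11cKO SRBC (n = 3), Notch2-11cKO untreated (n = 2), WT SRBC (n = 3) and WT untreated (n = 2). Points are arrays, and bars and whiskers are means and SDs; each panel has its own vertical axis, which does not start at 0, and levels of different genes cannot be set against each other. In the Ctsd panel the Notch2-11cKO arrays lie between 10.01 and 10.73, all above the WT arrays.

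Of the 10 glycosidases 3 were higher after SRBC (Hexa, Gusb and Fuca1) and 1 was lower (Gla), and Hexa alone passed untreated. Hexa encodes the alpha subunit of beta-hexosaminidase, which removes N-acetylhexosamines from gangliosides. Its log2 intensity was 9.24, 9.20 and 9.31 in Notch2-11cKO cells after SRBC, against 7.36, 7.34 and 7.49 in WT cells after SRBC. The untreated arrays gave 9.67 and 9.64 in Notch2-11cKO cells, against 8.59 and 8.47 in WT cells. Within each treatment the genotypes did not overlap, with differences of 1.85 ± 0.14 after SRBC, or 3.61-fold (adjusted p = 2.84e-05), and 1.12 ± 0.18 untreated, or 2.18-fold (adjusted p = 0.00287). Gusb, beta-glucuronidase, was higher after SRBC by 0.90 ± 0.19 (adjusted p = 0.0191) and Fuca1, alpha-fucosidase, by 0.74 ± 0.17 (adjusted p = 0.028).

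Gla, alpha-galactosidase A, which removes terminal galactose from globosides, went the other way. After SRBC, log2 intensities were 8.73, 8.42 and 8.83 in Notch2-11cKO cells, against 9.71, 9.69 and 9.35 in WT cells. Untreated Notch2-11cKO cells had 9.63 and 9.35, against 10.11 and 10.10 in untreated WT cells. The groups did not overlap in either comparison; the difference was -0.92 ± 0.17 after SRBC (adjusted p = 0.00909), or 1.90-fold lower, and -0.62 ± 0.21 untreated (adjusted p = 0.148). The other 6 glycosidases (Gaa, Glb1, Man2b1, Manba, Naglu and Neu1) had differences between -0.08 and 0.69 after SRBC and between -0.61 and 0.38 untreated, and none passed.

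Of the 3 sulfatases Arsb alone was called, in both comparisons. It encodes arylsulfatase B, which removes sulfate from dermatan and chondroitin sulfate. Its log2 intensity was 8.36, 8.77 and 8.22 in Notch2-11cKO cells after SRBC, against 7.03, 6.90 and 6.96 in WT cells after SRBC. Without treatment, 9.15 and 8.65 were measured in Notch2-11cKO cells, against 6.52 and 6.96 in WT cells. The genotypes did not overlap, and the differences were 1.49 ± 0.21 after SRBC, or 2.80-fold (adjusted p = 0.00147), and 2.16 ± 0.25 untreated, or 4.47-fold (adjusted p = 0.00041). Sgsh and Galns, which act on heparan and keratan sulfate, had differences of 0.25 and 0.46 after SRBC and of 0.00 and -0.22 untreated, and neither passed.

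Of the 8 genes of lipid hydrolysis and transport 4 were higher after SRBC and 2 of these, Npc2 and Psap, also untreated. Psap encodes prosaposin, the precursor of the saposins that present sphingolipids to their hydrolases. After SRBC, log2 intensities were 11.67, 11.35 and 11.30 in Notch2-11cKO cells, against 9.97, 8.90 and 9.05 in WT cells. In untreated mice the values were 11.68 and 11.55 in Notch2-11cKO cells, against 9.90 and 9.86 in WT cells. All Notch2-11cKO arrays lay above all WT arrays, among which WT SRBC replicate 1 was the highest; the differences were 2.13 ± 0.24 after SRBC, or 4.39-fold (adjusted p = 0.00038), and 1.73 ± 0.30 untreated, or 3.33-fold (adjusted p = 0.00521).

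Npc2, a soluble carrier of cholesterol, had log2 intensities of 10.89, 10.43 and 10.69 in Notch2-11cKO cells after SRBC, against 9.54, 8.55 and 8.97 in WT cells after SRBC. The untreated arrays gave 10.82 and 10.86 in Notch2-11cKO cells, against 8.87 and 8.44 in WT cells. The genotypes did not overlap, and the differences were 1.65 ± 0.24 after SRBC, or 3.14-fold (adjusted p = 0.00184), and 2.19 ± 0.29 untreated, or 4.55-fold (adjusted p = 0.00102). Npc1, the membrane protein to which Npc2 hands cholesterol, had overlapping groups and differences of -0.02 ± 0.20 after SRBC (adjusted p = 0.981) and 0.09 ± 0.24 untreated (adjusted p = 0.95).

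Lipa, the acid lipase that frees cholesterol from its esters, had log2 intensities of 9.34, 8.58 and 9.77 in Notch2-11cKO cells after SRBC, against 6.22, 7.64 and 7.27 in WT cells after SRBC. Untreated Notch2-11cKO cells had 9.71 and 9.55, against 8.09 and 8.17 in untreated WT cells. Arrays of the SRBC groups spread over more than 1 log2 unit but did not overlap; the difference was 2.19 ± 0.36 (adjusted p = 0.00411), and 1.51 without WT SRBC replicate 1 and Notch2-11cKO SRBC replicate 3. The untreated difference was 1.50 ± 0.44 (adjusted p = 0.0857). Asah1, acid ceramidase, was higher after SRBC by 1.32 ± 0.31 (adjusted p = 0.0296). Gm2a, Ppt1 and Smpd1, an activator of ganglioside breakdown, a thioesterase and a sphingomyelinase, had differences between -0.03 and 0.51 after SRBC and between -0.10 and 0.06 untreated, and none passed.

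The phosphatases differed from each other in direction. Acp2, lysosomal acid phosphatase, had log2 intensities of 8.08, 7.79 and 7.78 in Notch2-11cKO cells after SRBC, against 6.82, 6.85 and 7.27 in WT cells after SRBC. Without treatment, 7.95 and 8.00 were measured in Notch2-11cKO cells, against 6.81 and 6.90 in WT cells. The genotypes did not overlap, with differences of 0.90 ± 0.17 after SRBC (adjusted p = 0.0112) and 1.12 ± 0.21 untreated (adjusted p = 0.00972). Acp5, the tartrate-resistant phosphatase of osteoclasts and macrophages, had 6.93 and 7.01 in untreated Notch2-11cKO cells, against 8.18 and 8.52 in untreated WT cells, and was lower by 1.38 on the log2 scale (-1.38 ± 0.32, adjusted p = 0.0304). After SRBC it had 7.39, 7.25 and 8.32 in Notch2-11cKO cells, against 7.60, 8.02 and 7.89 in WT cells; these groups overlapped and the difference was -0.18 ± 0.26 (adjusted p = 0.801).

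Of the 8 membrane proteins 4 were higher after SRBC and 3 of these also untreated. Lamp1, with Lamp2 the main glycoprotein of the lysosomal membrane, had log2 intensities of 10.74, 10.24 and 10.26 in Notch2-11cKO cells after SRBC, against 9.82, 8.87 and 8.90 in WT cells after SRBC. In untreated mice the values were 10.54 and 10.59 in Notch2-11cKO cells, against 8.30 and 8.63 in WT cells. The genotypes did not overlap, though WT SRBC replicate 1 lay above the other WT arrays; the differences were 1.21 ± 0.25 after SRBC, or 2.32-fold (adjusted p = 0.0166), and 2.10 ± 0.31 untreated, or 4.29-fold (adjusted p = 0.0019). Lamp2 was higher by 0.80 ± 0.18 after SRBC (adjusted p = 0.0248) and by 0.97 ± 0.22 untreated (adjusted p = 0.0267).

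Scarb2, which carries beta-glucocerebrosidase to the lysosome, had log2 intensities of 8.50, 8.23 and 8.40 in Notch2-11cKO cells after SRBC, against 7.45, 7.86 and 7.50 in WT cells after SRBC. The untreated arrays gave 8.52 and 8.49 in Notch2-11cKO cells, against 6.94 and 7.32 in WT cells. The genotypes did not overlap; the differences were 0.78 ± 0.18 after SRBC (adjusted p = 0.0282) and 1.38 ± 0.22 untreated (adjusted p = 0.00326). Cd68, macrosialin, a glycoprotein also used as a macrophage marker, had 10.49, 10.49 and 10.75 in Notch2-11cKO cells after SRBC, against 8.88, 9.81 and 9.98 in WT cells after SRBC. Untreated, it had 11.15 and 11.07 in Notch2-11cKO cells, against 10.39 and 10.42 in WT cells. The groups did not overlap within a treatment, and the differences were 1.02 ± 0.24 after SRBC (adjusted p = 0.0324) and 0.71 ± 0.30 untreated (adjusted p = 0.286). Cln3, Laptm4a, Laptm5 and the calcium channel Mcoln1 had differences between 0.10 and 0.43 after SRBC and between -0.39 and 0.45 untreated, and none passed.

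Of the regulators Grn was higher and Tfeb was not called. Grn encodes progranulin, a secreted protein that reaches lysosomes and is cut there into granulins. Its log2 intensity was 10.47, 9.86 and 9.91 in Notch2-11cKO cells after SRBC, against 8.69, 8.50 and 8.65 in WT cells after SRBC. Untreated Notch2-11cKO cells had 10.63 and 10.76, against 9.43 and 9.59 in untreated WT cells. The genotypes did not overlap, with differences of 1.47 ± 0.18 after SRBC, or 2.76-fold (adjusted p = 0.000679), and 1.19 ± 0.22 untreated, or 2.28-fold (adjusted p = 0.00878).

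Tfeb had log2 intensities of 6.36, 6.34 and 5.65 in Notch2-11cKO cells after SRBC, against 6.55, 6.40 and 6.02 in WT cells after SRBC. Without treatment, 6.78 and 6.80 were measured in Notch2-11cKO cells, against 6.98 and 7.02 in WT cells. Its differences were -0.21 ± 0.21 after SRBC (adjusted p = 0.707) and -0.21 ± 0.26 untreated (adjusted p = 0.843). Its SRBC responses were -0.67 ± 0.24 in Notch2-11cKO cells (adjusted p = 0.355) and -0.68 ± 0.24 in WT cells (adjusted p = 0.161). Neither response passed, though SRBC and untreated arrays did not overlap in either genotype. Of its relatives Mitf and Tfec were higher in Notch2-11cKO cells in both comparisons and Tfe3 was not called. Mitf was at 7.02, 7.05 and 7.20 in Notch2-11cKO cells after SRBC, against 5.30, 4.40 and 4.56 in WT cells after SRBC, and higher by 2.33 ± 0.22, or 5.04-fold (adjusted p = 9.48e-05). In untreated mice Mitf was at 7.54 and 7.17 in Notch2-11cKO cells, against 4.74 and 4.82 in WT cells, and higher by 2.57 ± 0.27, or 5.95-fold (adjusted p = 0.000185).

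Tfec was at 6.45, 6.90 and 6.65 in Notch2-11cKO cells after SRBC, against 3.76, 4.90 and 4.23 in WT cells after SRBC, and higher by 2.37 ± 0.25, or 5.16-fold (adjusted p = 0.000211). In untreated mice Tfec was at 5.98 and 6.16 in Notch2-11cKO cells, against 4.18 and 3.81 in WT cells, and higher by 2.07 ± 0.30, or 4.21-fold (adjusted p = 0.00188). Tfe3 had overlapping SRBC groups and differences of 0.07 after SRBC (adjusted p = 0.881) and 0.30 untreated (adjusted p = 0.58). Of the 15 genes of the list that holds the TFEB relatives and the nutrient-sensing complexes of the lysosomal surface, 4 were higher after SRBC, Mitf, Tfec and the Ragulator subunits Lamtor2 (1.23) and Lamtor4 (0.87), and 2 untreated.

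**Figure D3:**
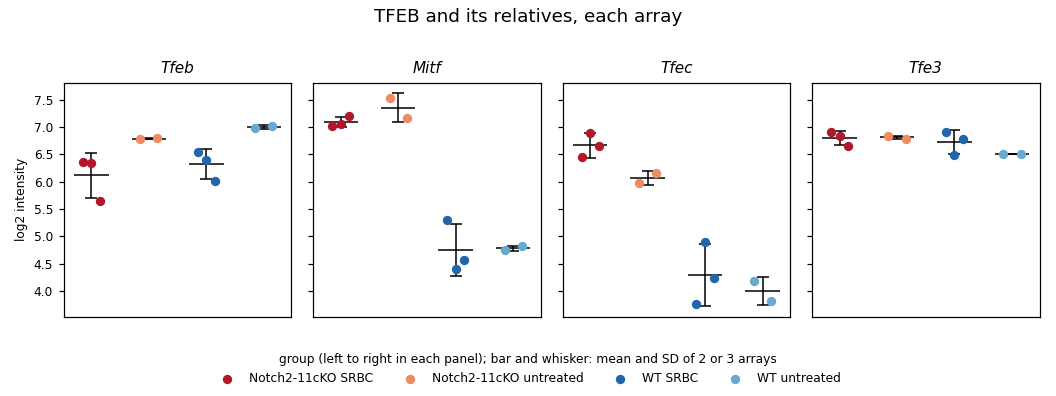
Log2 intensity of Tfeb and its relatives Mitf, Tfec and Tfe3 on each array, with groups from left to right Notch2-11cKO SRBC, Notch2-11cKO untreated, WT SRBC and WT untreated; bars and whiskers are means and SDs of 2 or 3 arrays. Mitf and Tfec arrays of Notch2-11cKO cells lie above all those of WT cells, while the SRBC arrays of Tfeb and of Tfe3 overlap between the genotypes; levels of different genes cannot be set against each other.

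Other lysosomal lists were read from the same fit. Of 19 further lysosomal enzymes and membrane proteins 4 were higher in Notch2-11cKO cells after SRBC and 4 untreated, with none lower. Pld3, an exonuclease of endolysosomes, was higher in both, by 2.53 ± 0.20 (adjusted p = 3.26e-05) and 2.80 ± 0.25 (adjusted p = 6.27e-05). Galc, galactosylceramidase, was also higher in both, by 1.00 ± 0.19 (adjusted p = 0.0098) and 2.22 ± 0.23 (adjusted p = 0.000185). Of 16 subunits of the V-ATPase, the proton pump that acidifies the lysosome, 4 were higher after SRBC (Atp6v0d2, Atp6v0a1, Tcirg1 and Atp6v1b2, by 0.99 to 1.64) and 2 of these, Atp6v0a1 and Atp6v1b2, untreated. Differences were below 0 for 5 of the 16 after SRBC and for 6 untreated. Atp6v0d2 was dim, with a mean log2 intensity of 3.86. Tcirg1 had means of 8.63 in Notch2-11cKO and 7.44 in WT cells after SRBC, and of 8.93 and 8.88 untreated. Of 4 cathepsin inhibitors Cstb, cystatin B, was higher in both, by 1.66 ± 0.36 (adjusted p = 0.0199) and 2.16 ± 0.44 (adjusted p = 0.0139). Of 5 genes of mannose 6-phosphate sorting, which delivers hydrolases to the lysosome, the receptor Igf2r was higher after SRBC by 1.20 ± 0.26 (adjusted p = 0.023) and none was called untreated.

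Calls of 9 of the 19 genes after SRBC held under all 19 alternative settings (Arsb, Ctsc, Ctsd, Gla, Grn, Hexa, Lipa, Npc2 and Psap); 10 genes were called without Notch2-11cKO SRBC replicate 1 (649 over all genes, against 1061), and 26 without both arrays that stood apart (2364). The others were lost under at least 1 alternative, with a highest adjusted p between 0.0533 (Ctsb) and 0.116 (Asah1) after SRBC. Untreated, the calls of Arsb, Ctsd, Hexa, Lamp1 and Npc2 held throughout, while 6 genes were called without Notch2-11cKO untreated replicate 1 (447 over all genes, against 1019), 7 without Notch2-11cKO untreated replicate 2 (561), 5 without WT untreated replicate 1 (418), 7 without WT untreated replicate 2 (474), and 21 without WT SRBC replicate 1 and Notch2-11cKO SRBC replicate 3 (1996).

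The next comparison asked how each genotype responded to SRBC. In Notch2-11cKO cells limma called 0 of the 46 genes, against 0.306% of all genes (0.14% higher and 0.166% lower), with 8 at an unadjusted p under 0.05. The median response there was -0.18, against 0.031 over all genes, and 39 of the 46 were negative. SRBC and untreated arrays did not overlap for 14 of the 46, against 28.3% of all genes. In WT cells 6 of the 46 genes were lower after SRBC than untreated and none was higher, against 1.97% lower and 1.82% higher among all genes; the 6 were Cln3, Ctsa, Gm2a, Grn, Hexa and Laptm5. In either direction 13% of the 46 were called, against 3.79% of all genes, and 15 had an unadjusted p under 0.05. The WT median response was -0.21, against 0.025 over all genes, and 34 of the 46 were negative. In WT cells the arrays did not overlap for 19 of the 46, against 33.5% of all genes.

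Markers of other cells and the further lysosomal lists were read in the same responses. In Notch2-11cKO cells 1 of 7 neutrophil markers was higher after SRBC, 1 of 10 cDC2 genes was lower, and none was called among the markers of macrophages, monocytes, cDC1, plasmacytoid dendritic cells, B, T, NK and erythroid cells. In WT cells 3 of 14 macrophage, 2 of 8 cDC1, 1 of 6 T cell and 1 of 7 neutrophil markers were higher after SRBC, 1 of 6 B cell markers and 2 of 10 cDC2 genes were lower, and none of the monocyte, plasmacytoid dendritic cell, NK or erythroid markers was called. Their part in the lysosomal responses was not tested. Of the 19 further lysosomal genes 0 were called in Notch2-11cKO cells, and 2, Cd63 (2.61) and Galc (1.22), were higher with none lower in WT cells, whereas the calls among the 46 were all lower. The V-ATPase list had 1 lower gene in WT cells, Tcirg1 (-1.44), and the list with the TFEB relatives 1, Rragc (-0.84). The sorting and inhibitor lists had no call in either response, and the V-ATPase and TFEB relatives lists had none in Notch2-11cKO cells.

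Hexa had the largest called response. Its values after SRBC did not overlap the untreated ones in either genotype; the response was -0.41 ± 0.16 in Notch2-11cKO cells (adjusted p = 0.414) and -1.14 ± 0.16 in WT cells, or 2.20-fold lower (adjusted p = 0.00322). Cln3, a membrane protein that is lost in a childhood lysosomal storage disease, had 6.65, 6.90 and 7.43 in Notch2-11cKO cells after SRBC, against 7.28 and 7.32 in untreated Notch2-11cKO cells. In WT cells it had 6.21, 6.83 and 6.67 after SRBC, against 7.75 and 7.63 untreated. The groups overlapped in Notch2-11cKO cells, with a response of -0.30 ± 0.25 (adjusted p = 0.753), and did not overlap in WT cells, with a response of -1.12 ± 0.25 (adjusted p = 0.0333).

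Gm2a, which lifts the ganglioside GM2 out of membranes for beta-hexosaminidase, had 10.76, 10.19 and 10.19 in Notch2-11cKO cells after SRBC, against 11.18 and 11.08 in untreated Notch2-11cKO cells (-0.75 ± 0.19, adjusted p = 0.139). In WT cells it had 10.31, 10.13 and 10.08 after SRBC, against 11.17 and 11.10 untreated (-0.96 ± 0.19, adjusted p = 0.0168). Every array after SRBC lay below every untreated array of its genotype. Laptm5, a lysosomal membrane protein of blood cells, had 11.71, 11.24 and 11.29 in Notch2-11cKO cells after SRBC, against 12.22 and 12.07 in untreated Notch2-11cKO cells (-0.74 ± 0.16, adjusted p = 0.0983). In WT cells it had 11.48, 11.31 and 11.14 after SRBC, against 12.14 and 12.14 untreated (-0.83 ± 0.16, adjusted p = 0.0182). These groups did not overlap either.

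Ctsa had 9.96, 9.63 and 9.81 in Notch2-11cKO cells after SRBC, against 10.11 and 10.27 in untreated Notch2-11cKO cells (-0.39 ± 0.17, adjusted p = 0.485). In WT cells it had 8.90, 9.15 and 9.06 after SRBC, against 9.72 and 9.93 untreated (-0.79 ± 0.17, adjusted p = 0.0284). Neither genotype's groups overlapped. Grn, whose values stand with the regulators, had a response of -0.62 ± 0.20 in Notch2-11cKO cells (adjusted p = 0.295) and of -0.90 ± 0.20 in WT cells (adjusted p = 0.0336). Hexa, Ctsa and Grn were thus higher in Notch2-11cKO than in WT cells after SRBC and also lower after SRBC in WT cells; these comparisons share the WT SRBC arrays. The largest positive WT response, that of Lamp1, was 0.73 ± 0.28 and did not pass (adjusted p = 0.2).

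**Figure D4:**
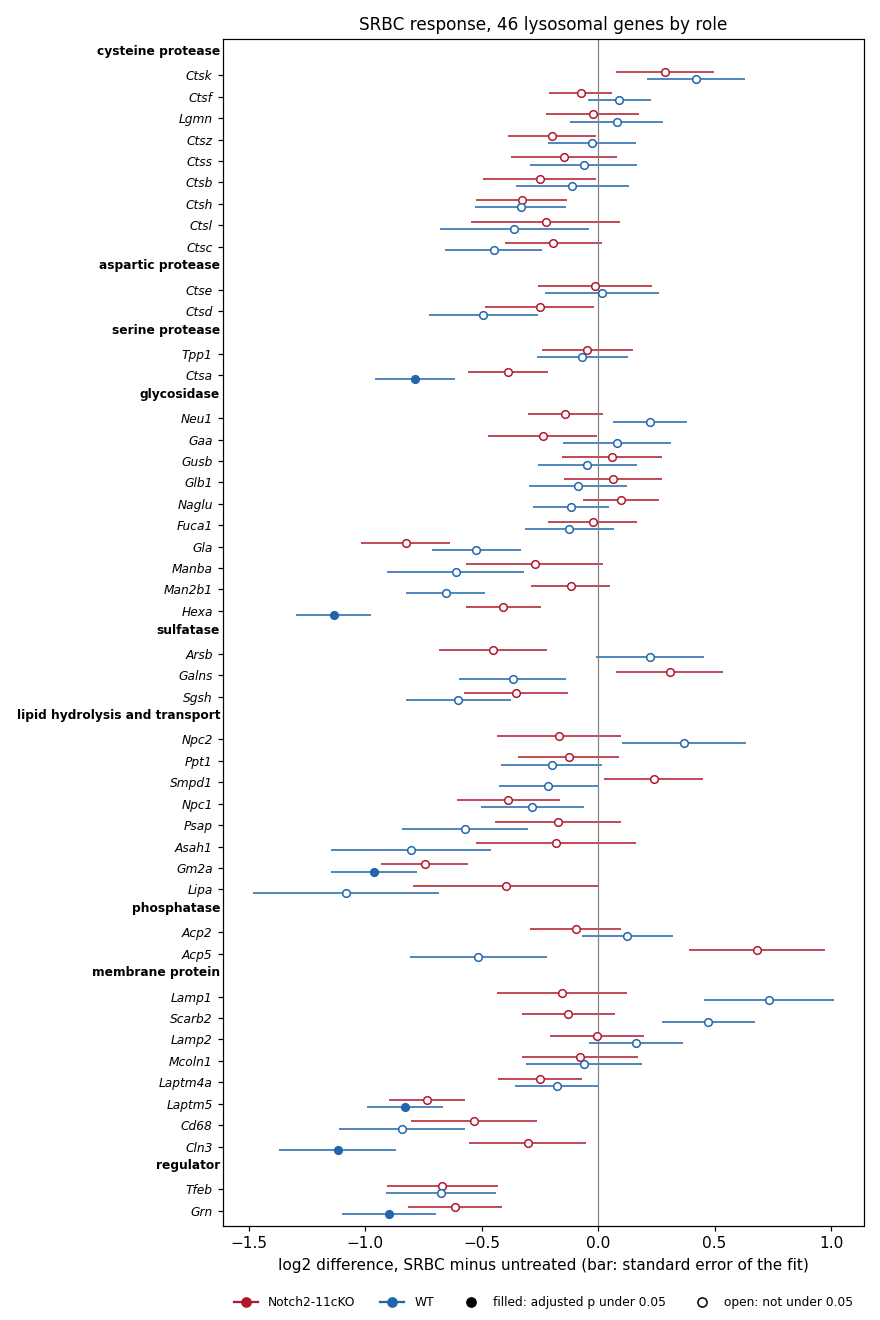
Differences in log2 intensity, SRBC minus untreated, for the 46 lysosomal genes grouped by role, in Notch2-11cKO cells and in WT cells (n = 3 SRBC against 2 untreated arrays in each). Bars are standard errors of the fit and filled points passed an adjusted p of 0.05; no point of Notch2-11cKO cells is filled, and 6 of WT cells are, all to the left of 0.

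Whether the responses differed between the genotypes was tested as an interaction, the Notch2-11cKO response minus the WT response. Limma called 0 of the 46 genes, against 0.0201% of all genes (0.01% higher and 0.01% lower), with 5 at an unadjusted p under 0.05. The interactions ranged from -0.89 (Lamp1) to 1.20 (Acp5), and the lowest adjusted p was 0.538, that of Hexa. The SRBC responses of the genotypes share no arrays and had the same sign for 29 of the 46 genes (63%), against 63.5% of all genes. Pearson's r was 0.46 across the 46 genes and 0.56 across all genes. Among genes above the median level 68.4% had the same sign, and r was 0.62.

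A list of 24 immediate early and heat shock genes, which rise when tissue is digested, moved with the treatment. Of these 4 were lower after SRBC in Notch2-11cKO cells and 10 in WT cells. Their mean log2 intensity was 8.72 to 9.63 in Notch2-11cKO arrays after SRBC, against 10.18 to 10.27 in untreated Notch2-11cKO arrays, and 8.75 to 9.23 in WT arrays after SRBC, against 10.34 to 10.46 in untreated WT arrays. The mean also differed in both arrays that stood apart. It was 9.23 in WT SRBC replicate 1, against 8.75 and 8.79 in its group. In Notch2-11cKO SRBC replicate 3 it was 8.72, against 9.63 and 9.36. The part of this mean in the changed counts without both arrays was not tested. With that mean as a covariate 1 of the 46 genes was called in the WT response (83 over all genes, against 756). The mean was lower on every SRBC array than on every untreated array, so this fit could not tell the mean and the treatment apart. The part of digestion in the responses was not tested.

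No call in the WT response held under every alternative. The WT response had 756 calls over all genes in the fit on all arrays. It had 3 among the 46 without Notch2-11cKO untreated replicate 1 (554 over all genes) and 3 without Notch2-11cKO untreated replicate 2 (556). It had 0 without WT untreated replicate 1 (101), 1 without WT untreated replicate 2 (199), 2 without WT SRBC replicate 2 (407) and 1 without WT SRBC replicate 3 (387). Without both arrays that stood apart 3 genes were lower in the Notch2-11cKO response (398 calls over all genes) and 15 in the WT response (2300), with 0 in the interaction (604).

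As a whole the 46 genes lay higher in Notch2-11cKO arrays at each treatment. Their mean log2 intensity was 8.13 to 8.28 in Notch2-11cKO arrays after SRBC, against 7.56 to 7.58 in WT arrays after SRBC. Untreated it was 8.38 to 8.42 in Notch2-11cKO arrays, against 7.81 to 7.91 in WT arrays. In all, 23 of the 46 genes were called in at least 1 of the 5 comparisons and 23 in none. Those called in none included 7 of the 9 cysteine proteases, 6 of the 10 glycosidases and Tfeb.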

How the data were processed

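Deposited values were linear intensity from Affymetrix Mouse Gene 1.0 ST arrays, labelled with biotin by the Ambion WT Expression kit per the labels' protocols; the authors' method of normalization is unstated there. There were 28853 probe sets and 10 arrays, with array medians of 29.5 to 31.7 and values of 2.57 to 11436.78. No gene was called above background, since no detection p-value was used, and precision is limited by how many arrays there were. Of the probe sets, 21789 listed 1 gene symbol, 1621 several and 5443 none.

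Values were log2 transformed, and the single-symbol probe set with the highest mean was kept for each of 19938 genes, with no filter on dim genes. Among the 46 genes 1, Arsb, had more than 1 such probe set, and 2, Ctsk and Naglu, lay below the median gene level of 5.06. A limma fit with 1 mean for each of the 4 groups (lmFit, contrasts, eBayes with trend; degrees of freedom 6 residual and 5.25 prior) gave 5 comparisons. Tests were two-sided, with Benjamini-Hochberg adjustment across the 19938 genes and calls at an adjusted p under 0.05. Every gene of the list could be named; values on each array were given for up to 10 called genes of a comparison, in order of adjusted p, and for Tfeb, Ctsd, Lamp1, Cd68, Ctss, Ctsl and Ctse whatever their p. Values on each array of Acp5, Mitf, Tfec, Clec4a4 and Notch2 were added after they had been seen. Of 175 symbols of the other lists 158 were measured. The members and lists were chosen with earlier results of these data known, those of the arrays that stood apart included.

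Same-numbered arrays of different groups had deviations from their group means that correlated between -0.17 and 0.38, and differently numbered arrays between -0.44 and 0.32. The highest value was that of WT SRBC replicate 1 with Notch2-11cKO SRBC replicate 1. The numbers were not taken to pair the arrays, and whether arrays shared a batch was not tested. Each fit was repeated with quantile normalization, with centred arrays, with probe sets of a gene averaged, with genes under the median level left out, without the trend, on the compared groups alone, with the replicate number as a block, with the immediate early and heat shock mean as a covariate, and without each array in turn or without both arrays that stood apart. Promoter windows and start sites came from RefSeq tables of GRCm38.p6. Versions were limma 3.58.1 in R 4.3.3, and matplotlib 3.10.9, pandas 2.3.3 and NumPy 2.4.6 in Python 3.11.15.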

Additional observations from a re-analysis of the deposited data

Results flagged for a closer look

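Among the further lysosomal genes, the SRBC response of Cd63, a tetraspanin of late endosomes and lysosomes, differed between the genotypes by a test of the difference itself. Its log2 intensity was 11.53, 11.60 and 11.73 in Notch2-11cKO cells after SRBC, against 11.15 and 10.93 in untreated Notch2-11cKO cells, and 11.10, 11.09 and 11.23 in WT cells after SRBC, against 8.49 and 8.56 in untreated WT cells. The untreated WT arrays stood below all others. The response was 0.58 ± 0.14 in Notch2-11cKO cells (adjusted p = 0.133) and 2.61 ± 0.14 in WT cells (adjusted p = 9.14e-06), and the interaction was -2.03 ± 0.20 (limma, adjusted p = 0.00526). This interaction call did not hold without WT untreated replicate 1, a fit that leaves a single array in that group. Cd63 was higher in untreated Notch2-11cKO cells than in untreated WT cells by 2.51 ± 0.16 (adjusted p = 6.8e-06), while the difference after SRBC was 0.48 ± 0.13 (adjusted p = 0.0523). The list that holds Cd63 was chosen with earlier results of these data known. Groups of 2 or 3 arrays are too small for a test of single arrays that lie far from the others.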

How the results depend on the processing

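No called value of the 46 genes changed sign under any of the 19 alternatives (0 of 37). The number of the 46 genes called moved by more than 1.5 times as follows. With only the groups compared in the fit it was 10 in place of 19 for Notch2-11cKO against WT after SRBC and 22 in place of 12 untreated. Without WT SRBC 1 and Notch2-11cKO SRBC 3 it was 21 untreated, 3 in place of 0 for the Notch2-11cKO response and 15 in place of 6 for the WT response. With the immediate early and heat shock mean as a covariate, which follows the treatment, it was 1 for the WT response. Leaving out 1 array at a time gave 10 to 19 after SRBC, 5 to 15 untreated, 0 to 1 for the Notch2-11cKO response, 0 to 8 for the WT response and 0 to 0 for the interaction. With the replicate number as a block the counts were 19 after SRBC, 12 untreated, 0 for the Notch2-11cKO response, 5 for the WT response (Grn was lost) and 0 for the interaction. Counts over all genes moved too. In the same order they were 1061, 1019, 61, 756 and 4 in the main fit, and 1319, 1175, 50, 715 and 6 with the block. Without WT SRBC replicate 1 they were 1256, 1390, 183, 1331 and 44. Without Notch2-11cKO SRBC replicate 1 they were 649, 889, 11, 582 and 4. Over all genes, leaving out both arrays that stood apart gave 2364 calls in place of 1061 after SRBC, 1996 in place of 1019 untreated, 398 in place of 61 for the Notch2-11cKO response, 2300 in place of 756 for the WT response and 604 in place of 4 for the interaction. The cause was not tested. Only the groups compared gave 627 calls over all genes between genotypes after SRBC, 1966 untreated, 23 for the Notch2-11cKO response and 559 for the WT response; it could not be varied for the interaction, which uses every group. The covariate gave 4 for the Notch2-11cKO response, 83 for the WT response and 8 for the interaction, and no trend gave 103 for the Notch2-11cKO response and 7 for the interaction.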
